A study of Homo sapiens with 3 samples.

Results

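The genes of cholesterol and fatty acid synthesis were examined in SAS cells, an established human tongue carcinoma line that is called GFP-SAS in the labels, after siRNAs against AKT1. The list holds 37 genes, from the enzymes of the mevalonate pathway to the enzymes that make, desaturate, lengthen and esterify fatty acids, with the SREBP transcription factors and their regulators. It was set by gene name. A total of 35 members had at least 1 probe set annotated to them alone, out of 18239 such genes on the array, and all 35 lay above the filter that left 12779 genes to be tested. FDFT1 and ACSL3 are not analysed here. The study has 3 libraries, each from cells exposed to 10 nM siRNA for 24 h: 1 with the non-targeting siNT, 1 with siAkt1-22 and 1 with siAkt1-58, the last pair being different siRNAs against the same target. All libraries come from the same line and share the GFP-SAS name, so effects of that background are common to all groups. Each library had its own siRNA, and the labels do not say whether the cultures were grown independently. The spread between the siAkt1 libraries therefore holds any difference between their siRNAs and may also be partly technical. These parts cannot be told apart.

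Cholesterol is built from acetyl-CoA through mevalonate, isoprenoid units, squalene and a series of sterol intermediates, while fatty acids are built from the same acetyl-CoA by carboxylation and chain extension. Both branches are switched on by the SREBP proteins, which SREBF1 and SREBF2 encode. SCAP escorts SREBPs from the endoplasmic reticulum when sterols are low, and INSIG1 holds SCAP back when sterols are plentiful. AKT signalling is known to favour SREBP activity and lipid synthesis in many carcinoma cells, and AKT also phosphorylates the citrate-cleaving enzyme ACLY.

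The target gene was checked before the members. AKT1 read a log2 value of 6.75 in siNT, 3.67 in siAkt1-22 and 3.47 in siAkt1-58, so both siRNA libraries lay below the control by -3.08 and -3.28. A dimmer AKT1 probe set gave -1.23 and -1.29. AKT2, a related kinase, read 7.71 in siNT, 6.74 in siAkt1-22 and 7.69 in siAkt1-58, and its next brightest probe set gave -2.01 and -0.01. Of 10 squamous epithelial markers, 7 were measured and 6 lay above the filter level, a mean log2 value of 3.93, while the basal keratin KRT14 lay below it at 3.65 to 3.67. Above the filter were 1 of 6 fibroblast, 2 of 3 endothelial, 1 of 5 immune and 4 of 6 adipocyte and hepatocyte markers. Their mean values were at most 5.18, apart from CD68 at 6.33 to 7.14, which carcinoma cells can also express. The summed log2 level of the immune list went from 18.98 with siNT to 19.33 with siAkt1-22 and 19.88 with siAkt1-58. Within it CD68 differed from siNT by 0.42 and 0.81, and MS4A1 by -0.07 and 0.09. PTPRC, CD3E and CD14 gave 0.00 with both siRNAs. Any part of this list in the members' values was not tested. The 24 poly-A controls, probe sets for transcripts added ahead of labelling, set siAkt1-22 apart. They were a median of -0.56 from siNT in that library, whereas in siAkt1-58 they were at -0.01. ACTB read -3.09 against siNT with siAkt1-22, and 0.21 with siAkt1-58. By contrast, the 9 hybridisation controls had medians of -0.04 with siAkt1-22 and 0.08 with siAkt1-58, and GAPDH read -0.05 and 0.02.

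By their brightest probe sets, 0 of 35 members were 2-fold or more below siNT with both siRNAs (background 1.17%). Likewise, 0 were 2-fold or more above it with both (background 0.736%). Both counts are near such low backgrounds. A dimmer ME1 probe set was at least 2-fold below siNT with both siRNAs (-1.61 and -1.13). The members were split between the siRNAs more often than all genes tested, as counted below. With siAkt1-22, 6 of 35 members were at least 2-fold lower than siNT, namely ACLY, SCD, AACS, IDI1, MSMO1 and ELOVL6, against a background of 5.97% of all genes tested. PMVK was the only member at least 2-fold higher with siAkt1-22 (background 4.40%). With siAkt1-58, 0 members were at least 2-fold lower (background 3.58%), and STARD4 was the only member at least 2-fold higher (background 1.54%).

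The members' median difference was -0.24 with siAkt1-22 and 0.08 with siAkt1-58, beside 0.00 and 0.00 for all genes tested. Below siNT were 23 of 35 members with siAkt1-22 (background 35.7%) and 12 of 35 with siAkt1-58 (background 37.0%). A total of 20 members lay on opposite sides of siNT with the siRNAs (background 25.6%), 7 below it with both (background 21.4%) and 6 above it with both (background 30.9%). MVK and FDPS were tied with siNT with 1 siRNA (background 22.1%). When the arrays were shifted to equal poly-A controls, the medians of all genes became 0.56 and 0.01 and those of the members 0.32 and 0.09, so the sign of the siAkt1-22 median turns with that scaling. The shift is the same for every gene.

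The members are mostly well above the filter, so genes of like signal were also counted. Of the 17 members with a mean log2 value of at least 8, 4 were at least 2-fold lower with siAkt1-22, against 7.06% of the 3343 genes tested at that level. The same 17 members held 9 on opposite sides of siNT with the siRNAs (background 33.8%) and 4 with siAkt1-22 at least 2-fold below siAkt1-58 (background 6.73%). Their medians were -0.33 with siAkt1-22 and -0.01 with siAkt1-58, beside 0.02 and 0.02 for all genes at that level.

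**Figure D1:**
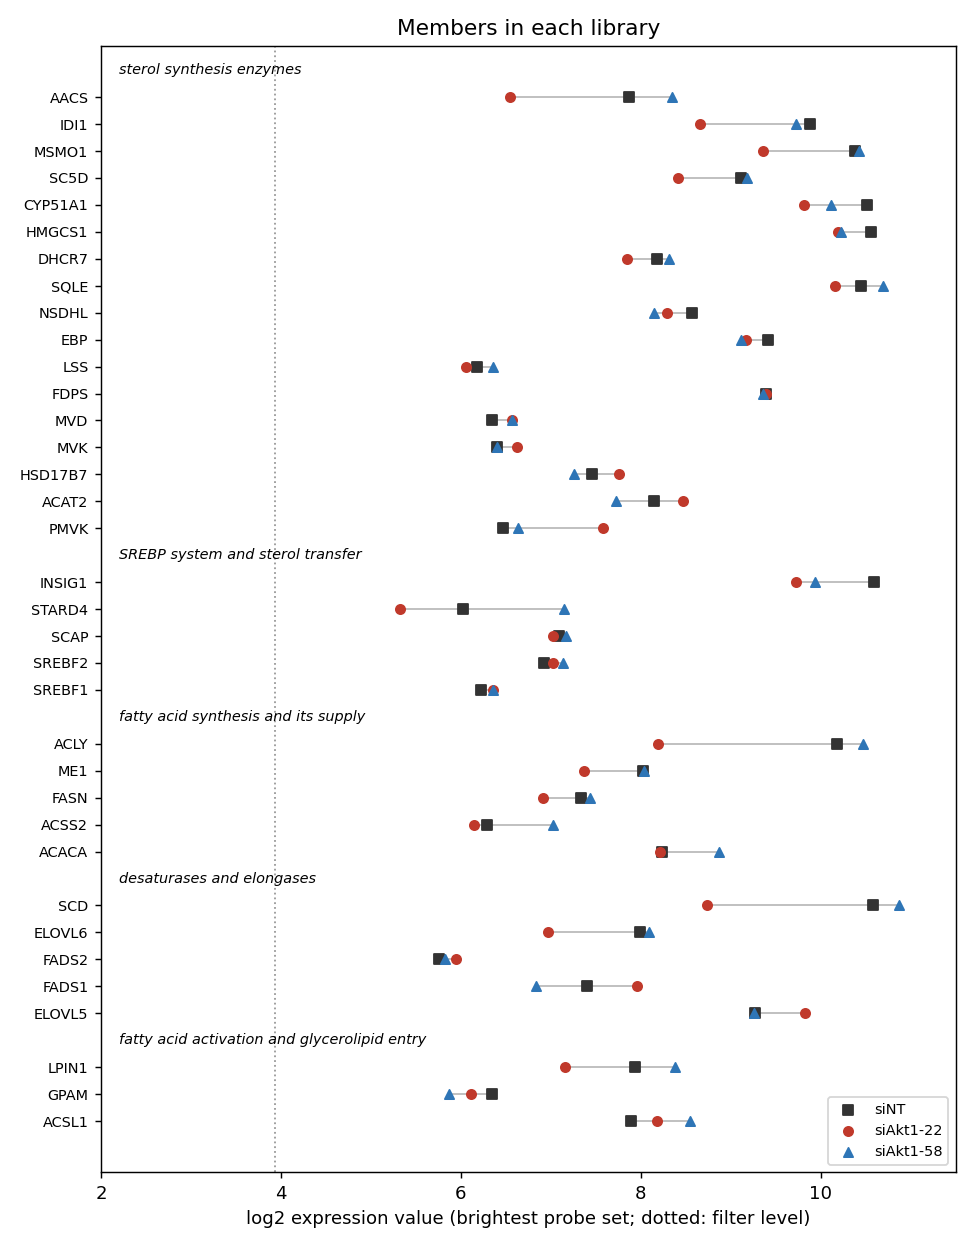
Log2 expression value (horizontal axis) of the 35 measured members, by role, in the siNT (square), siAkt1-22 (circle) and siAkt1-58 (triangle) libraries, 1 library each. For ACLY, SCD, AACS, IDI1, ELOVL6 and MSMO1 the siAkt1-22 circle stands at least 1 unit to the left of siNT, while the siAkt1-58 triangle is within 0.48 of it; levels of different genes are not comparable.

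The test of both siAkt1 libraries against siNT called no member. Limma's moderated test gave 0 of 35 members and 0 of 12779 genes with an adjusted p under 0.05 (background 0.00%), and the lowest adjusted p among members was 0.607. At an unadjusted p under 0.05 there were 3 members, HMGCS1, MVD and SREBF1, against 954 genes (7.47%), a share near the background. MVD and SREBF1 each read exactly the same value in both siAkt1 libraries, which makes their estimated spread very small. An exact permutation test of 2 libraries against 1 cannot give a p below 0.333, and a missing call does not show that a level was kept. Both differences also rest on the same siNT library, whose own spread was not measured.

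The largest difference of a member with siAkt1-22 was at the entry to fatty acid synthesis. ACLY, which splits cytosolic citrate into acetyl-CoA and oxaloacetate and so feeds both pathways, had log2 values of 10.18 in siNT, 8.20 in siAkt1-22 and 10.47 in siAkt1-58. The siAkt1-22 library was 3.95-fold below siNT and the siAkt1-58 library was 1.22-fold above it. Its other probe set gave -1.78 and 0.31, close to the -1.98 and 0.29 of the brightest. The mean difference over both siRNAs, -0.85 ± 1.61 (SD, n = 2), was smaller than its spread.

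By their brightest probe sets, the other 4 genes of fatty acid synthesis and its supply were arranged the same way around siNT. Each was nearer to it than ACLY with siAkt1-22. By this reading all 5 genes of this role lay below siNT with siAkt1-22 and above it with siAkt1-58. Of all genes tested, 25.6% were split in either order. The medians of the role were -0.42 and 0.29. Some differences were small, such as -0.03 for ACACA with siAkt1-22 and 0.02 for ME1 with siAkt1-58. ACSS2, which makes acetyl-CoA from acetate, was 6.29 in siNT, 6.14 in siAkt1-22 and 7.02 in siAkt1-58. ACACA, the carboxylase that commits acetyl-CoA to fatty acids, was 8.24, 8.21 and 8.87 in the same order. On these brightest probe sets the siAkt1-58 library was the one that stood off for both genes, but the dimmer ones did not show this. The dimmer ACSS2 probe set gave 0.16 with both siRNAs. Those of ACACA gave -0.06 and -0.31 with siAkt1-22, and -0.06 and 0.06 with siAkt1-58.

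FASN, the synthase that builds palmitate, was 7.33 in siNT, 6.91 in siAkt1-22 and 7.44 in siAkt1-58. ME1, a malic enzyme that supplies NADPH, was 8.02, 7.37 and 8.04. A dimmer ME1 probe set was below siNT with both siRNAs, by -1.61 and -1.13, so the ME1 probe sets disagree on siAkt1-58.

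Desaturases and elongases did not share a direction. SCD, the desaturase that turns saturated into monounsaturated fatty acids, had log2 values of 10.59 in siNT, 8.73 in siAkt1-22 and 10.87 in siAkt1-58. That placed siAkt1-22 3.62-fold below siNT and siAkt1-58 1.22-fold above it. All 4 SCD probe sets were below siNT with siAkt1-22 (-0.92 to -1.85) and above it with siAkt1-58 (0.16 to 0.56).

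ELOVL6, which lengthens the palmitate that FASN makes, followed the same order with 7.99, 6.97 and 8.09. Its 3 probe sets gave -0.93 to -1.09 with siAkt1-22 and -0.03 to 0.10 with siAkt1-58. The enzymes of polyunsaturated fatty acids read above siNT with siAkt1-22. FADS1, a desaturase of these fatty acids, was 7.41 in siNT, 7.96 in siAkt1-22 and 6.84 in siAkt1-58, and all 3 of its probe sets had this order. ELOVL5, their elongase, was 9.27, 9.82 and 9.26, and FADS2, the other desaturase of the pathway, was 5.76, 5.95 and 5.83. FADS1 was the only member whose siAkt1-22 value exceeded that of siAkt1-58 by 2-fold or more (background 5.00%). The medians of this role, 0.19 and 0.07, hide the opposite places of SCD and ELOVL6 on one side and FADS1 and ELOVL5 on the other.

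**Figure D2:**
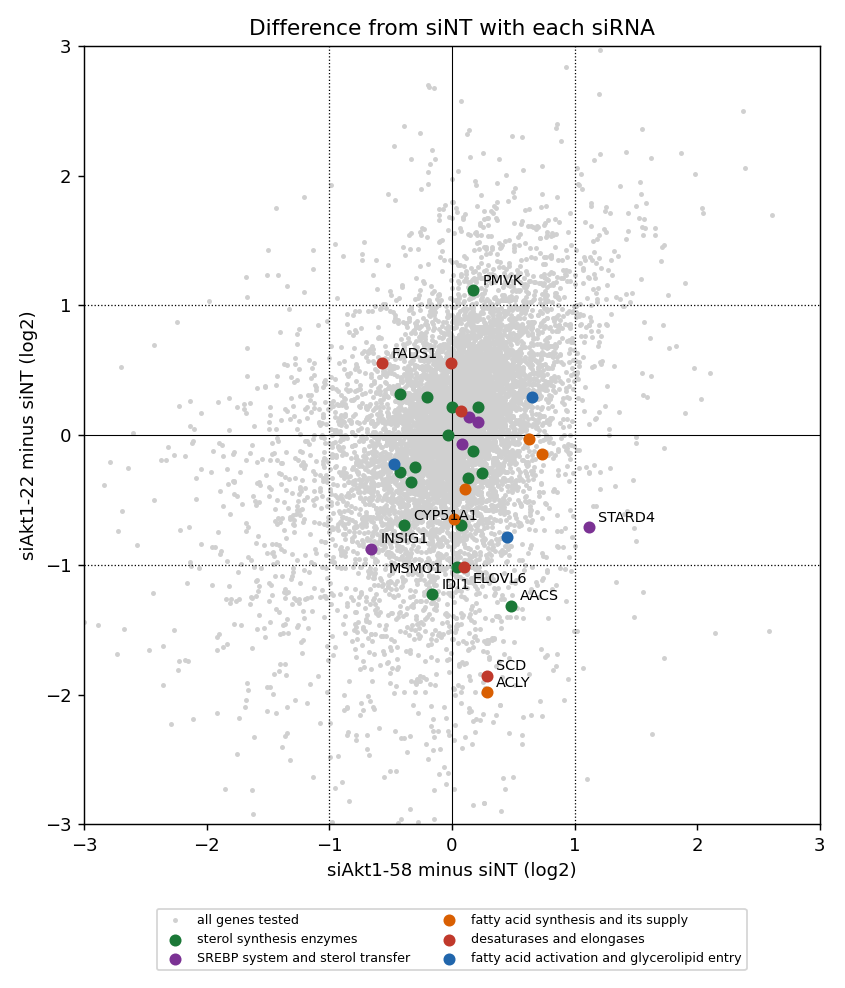
Difference from siNT in log2 units with siAkt1-58 (horizontal) and siAkt1-22 (vertical) for all genes tested (grey) and the 35 members (coloured by role); dotted lines mark 2-fold, and 32 grey points beyond 3 units are not drawn. No member lies in a corner beyond 2-fold with both siRNAs, and ACLY and SCD are the lowest members with siAkt1-22, at -1.98 and -1.85; both axes share the siNT library.

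Among the enzymes of sterol synthesis, the early mevalonate steps and the later steps were mixed in direction. HMGCS1, which condenses acetoacetyl-CoA and acetyl-CoA, was 10.56 in siNT, 10.19 in siAkt1-22 and 10.22 in siAkt1-58, which averaged -0.35 ± 0.02 from siNT (SD, n = 2). Its dimmer probe set gave -0.64 and -0.18. By their brightest probe sets, the mevalonate kinase MVK (0.22 and 0.00) and the decarboxylase MVD (0.22 and 0.22) read at or slightly above siNT. The dimmer MVK probe set gave 0.29 with siAkt1-22 and -0.33 with siAkt1-58.

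PMVK, the kinase between MVK and MVD, was 6.46 in siNT, 7.58 in siAkt1-22 and 6.64 in siAkt1-58. Its 3 probe sets all lay above siNT, by 1.12 to 1.78 with siAkt1-22 and by 0.17 to 0.54 with siAkt1-58. IDI1, which isomerises the isoprenoid unit made by MVD, was the opposite, at 9.89, 8.66 and 9.73. Its probe sets gave -1.23 and -1.48 with siAkt1-22, and -0.16 with siAkt1-58 for both. Neighbouring steps of the mevalonate pathway thus stood on opposite sides of siNT in the siAkt1-22 library. FDPS, which joins the isoprenoid units, was 9.40, 9.40 and 9.36.

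After squalene, MSMO1 had the largest difference from siNT with siAkt1-22. This oxidase, which removes the methyl groups at carbon 4 of the sterol ring, was 10.38 in siNT, 9.36 in siAkt1-22 and 10.42 in siAkt1-58. Its 3 probe sets above the filter gave -0.92 to -1.02 with siAkt1-22 and 0.04 to 0.22 with siAkt1-58. CYP51A1, the lanosterol demethylase, was 10.51, 9.82 and 10.12, below siNT with both siRNAs (-0.54 ± 0.21, SD, n = 2). Its dimmer probe set gave -1.26 and -0.55.

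NSDHL, which acts with MSMO1, was -0.28 and -0.42 with siAkt1-22 and siAkt1-58, and EBP, a sterol isomerase, was -0.24 and -0.30. SC5D, a late desaturase, was -0.70 and 0.07, with 3 of its 4 probe sets between -0.70 and -0.76 with siAkt1-22. With siAkt1-58 its dimmer probe sets gave -0.08 to 0.00, so its split rests on the brightest one. SQLE, the epoxidase that opens the sterol branch, was -0.29 and 0.25, and its 4 probe sets all kept that order. DHCR7 (-0.33 and 0.13) and the cyclase LSS (-0.12 and 0.17) were also split, as was HSD17B7 (0.29 and -0.21). Over the 17 measured genes of this role the medians were -0.28 and 0.00, with 5 of 17 below siNT (21.4% of all genes tested) and 2 above it (30.9%) with both siRNAs.

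The acetoacetyl-CoA enzymes differed from each other. AACS, which activates acetoacetate for lipid synthesis, was 7.87 in siNT, 6.55 in siAkt1-22 and 8.35 in siAkt1-58. Its dimmer probe sets above the filter were -0.38 and -0.81 with siAkt1-22, and 0.16 and -0.20 with siAkt1-58. ACAT2, the cytosolic thiolase, was 8.15, 8.47 and 7.73, and its 3 probe sets were all above siNT with siAkt1-22 (0.32 to 0.45) and below it with siAkt1-58 (-0.37 to -0.49).

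The transcripts of the SREBP system itself read close to siNT. SREBF1 was 6.22 with siNT and 6.36 in both siAkt1 libraries, SREBF2 was 6.93, 7.03 and 7.14, and SCAP was 7.09, 7.02 and 7.17. Dimmer probe sets above the filter gave -0.20 and 0.12 for SREBF1, and 0.07 and 0.07 for SCAP. Those of SREBF2 gave 0.00 and 0.00, and -0.22 and -0.02. The place of SREBF1 and SREBF2 above siNT with both siRNAs thus rests on the brightest probe sets. These readings are of mRNA, while the activity of SREBPs is set by cleavage, which an array does not read. INSIG1, itself a well-known SREBP target, was the member with the largest difference shared by both siRNAs, at 10.60, 9.72 and 9.94. The 3 INSIG1 probe sets gave -0.78 to -1.04 with siAkt1-22 and -0.30 to -0.66 with siAkt1-58, so the mean of -0.77 ± 0.15 (SD, n = 2) exceeded the spread between siRNAs; limma's adjusted p was 0.683.

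STARD4, a protein that carries sterols through the cytosol, separated the siRNAs most within this role. It was 6.03 in siNT, 5.32 in siAkt1-22 and 7.15 in siAkt1-58. The next brightest of its 5 probe sets gave -0.33 and 0.34, the same order with smaller size, and the other 3 lay below the filter. Averaged over its probe sets STARD4 was no longer 2-fold higher with siAkt1-58, which left 0 such members.

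Of the genes that activate fatty acids and start glycerolipids, ACSL1, an acyl-CoA synthetase, was above siNT with both siRNAs, at 7.89, 8.18 and 8.54. GPAM, which adds the acyl chain that starts triglyceride synthesis, was below it with both, at 6.34, 6.12 and 5.87. All 4 GPAM probe sets lay below siNT with both siRNAs, by up to -0.75. LPIN1, a phosphatidate phosphatase, was 7.94 in siNT, 7.16 in siAkt1-22 and 8.39 in siAkt1-58. A dimmer LPIN1 probe set showed the same order with -0.97 and 0.71.

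**Figure D3:**
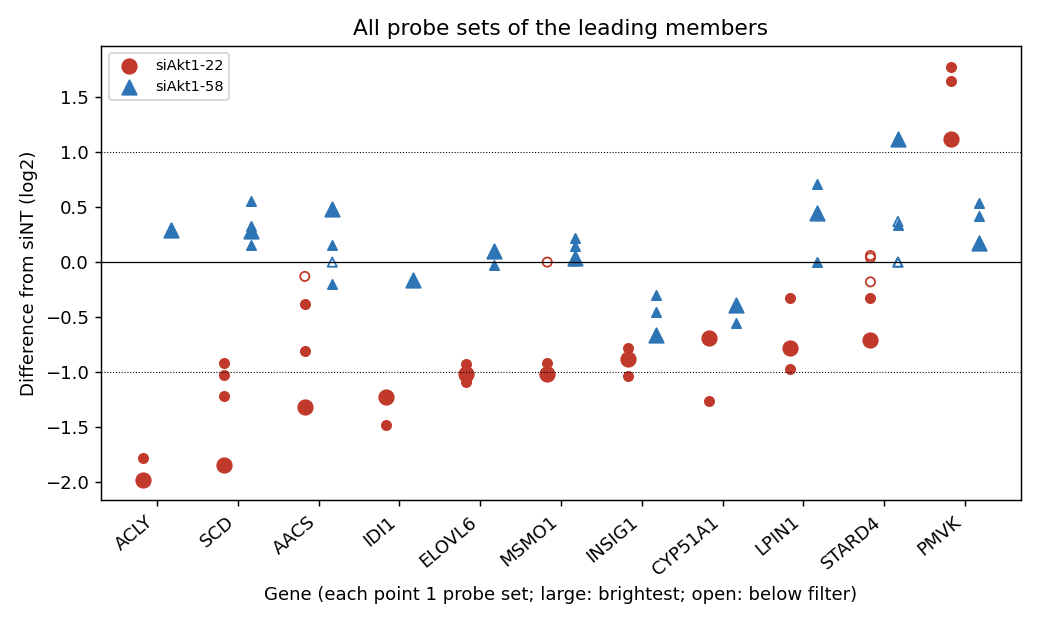
Difference from siNT in log2 units (vertical) for every probe set of 11 members, with siAkt1-22 (circles) and siAkt1-58 (triangles); large symbols are the brightest probe set and open symbols lie below the filter. All 17 probe sets above the filter of ACLY, SCD, AACS, IDI1, ELOVL6 and MSMO1 are below 0 with siAkt1-22, and 12 of them by at least 1 unit.

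Probe sets of a gene are readings of the same RNA and not replicates. The members had 92 probe sets, of which 8 lay below the filter, and 5 members had a single probe set. Beyond the brightest, 49 probe sets lay above the filter, and 41 of them had the sign of the brightest with siAkt1-22 and 35 with siAkt1-58. For the 7 members that differed by 2-fold or more with siAkt1-22, all 13 further probe sets above the filter had that sign.

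The siRNAs were then set against each other, a comparison that does not use the siNT library but has 1 library on each side and no test. ACLY (-2.27), SCD (-2.14), STARD4 (-1.83), AACS (-1.80), LPIN1 (-1.23), ELOVL6 (-1.11), IDI1 (-1.07) and MSMO1 (-1.06) had a siAkt1-22 value 2-fold or more under that of siAkt1-58. These are 8 of 35 members, against a background of 5.28%. With arrays shifted to equal poly-A controls there were 4 such members (background 2.10%). With probe sets averaged there were 5, and the share of all genes under that setting was not counted. Within the same pair of libraries AKT2 differed by -0.94 and ACTB by -3.30. The brightest AKT1 probe set lay below the filter level in both libraries. A dimmer one lay just above that level, at 4.07 in siAkt1-22 and 4.02 in siAkt1-58. Values this near the filter level cannot show whether the knockdown was alike. The part of AKT2 or of the control shift in the members' values was not tested.

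The upstream sequences of 5 members are shown, chosen after their values were seen. ACLY and SCD were the lowest members with siAkt1-22, STARD4 was the highest with siAkt1-58, INSIG1 had the largest difference shared by both siRNAs, and ELOVL6 was at least 2-fold lower with siAkt1-22 beside SCD. Each is the 250 bases before the annotated start in RefSeq, build GRCh38.p14, written 5′ to 3′ on the strand of the gene; the more upstream of 2 listed starts was taken for ACLY. Capitals mark CCAAT, the box bound by NF-Y, and CACNCCAC, a core of sterol regulatory elements, on either strand.
SCD, chr10:100346983-100347232, plus strand: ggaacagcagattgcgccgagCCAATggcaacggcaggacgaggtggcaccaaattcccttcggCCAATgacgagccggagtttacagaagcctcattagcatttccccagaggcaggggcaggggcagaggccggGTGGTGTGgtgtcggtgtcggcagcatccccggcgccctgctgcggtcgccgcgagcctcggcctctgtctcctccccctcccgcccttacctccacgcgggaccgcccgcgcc
ACLY, chr17:41919023-41919272, minus strand: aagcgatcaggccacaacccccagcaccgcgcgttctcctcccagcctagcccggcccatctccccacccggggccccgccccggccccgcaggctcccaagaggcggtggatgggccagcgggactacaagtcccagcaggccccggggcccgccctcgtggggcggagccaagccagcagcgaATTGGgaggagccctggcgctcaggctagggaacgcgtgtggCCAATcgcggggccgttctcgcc
ELOVL6, chr4:110198616-110198865, minus strand: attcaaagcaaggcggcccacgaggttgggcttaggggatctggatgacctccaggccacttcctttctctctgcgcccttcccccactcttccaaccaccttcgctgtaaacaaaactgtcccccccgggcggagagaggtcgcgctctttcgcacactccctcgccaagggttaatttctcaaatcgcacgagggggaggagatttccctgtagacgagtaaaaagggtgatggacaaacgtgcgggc
INSIG1, chr7:155297628-155297877, plus strand: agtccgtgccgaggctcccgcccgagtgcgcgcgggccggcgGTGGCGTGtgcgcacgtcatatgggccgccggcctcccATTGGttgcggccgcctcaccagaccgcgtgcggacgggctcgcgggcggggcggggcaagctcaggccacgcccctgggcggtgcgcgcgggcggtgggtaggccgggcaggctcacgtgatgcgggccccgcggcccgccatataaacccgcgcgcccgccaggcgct
STARD4, chr5:111512536-111512785, minus strand: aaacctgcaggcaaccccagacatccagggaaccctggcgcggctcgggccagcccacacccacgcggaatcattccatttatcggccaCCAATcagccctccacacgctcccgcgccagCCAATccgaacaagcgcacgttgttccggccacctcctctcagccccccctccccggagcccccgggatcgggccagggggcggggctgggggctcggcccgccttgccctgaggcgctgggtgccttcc

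SCD and INSIG1 hold 1 CACNCCAC match each, with 2 CCAAT boxes in SCD and 1 in INSIG1. ACLY and STARD4 hold 2 CCAAT boxes each and no CACNCCAC, and neither string occurs in the ELOVL6 window. Of the members at least 2-fold lower with siAkt1-22, SCD, ACLY, IDI1 and MSMO1 held CCAAT, while ELOVL6 and AACS did not. Only SCD and IDI1 among them held CACNCCAC. Of the 32 measured members with a listed promoter, 21 (65.6%) held CCAAT, against 37% of 27305 genes, and 7 (21.9%) held CACNCCAC, against 5.89%. The GC box GGGCGG was in 30 (93.8%), against 46.2%. The 27305 genes are all those with a listed promoter, whatever their signal, whereas these members all passed the filter, so the sets are unlike. A gene was counted where any of its listed starts held the string, matches of different strings may share bases, and no test was run. A match is only a string of letters in this window. Members with CACNCCAC (IDI1, SC5D, SREBF2, INSIG1, ACACA, SCD and ACSL1) had a median of -0.70 with siAkt1-22 and the 25 without it -0.23. With siAkt1-58 the medians were 0.21 and 0.07. The members with CACNCCAC ranged from -1.85 (SCD) to 0.29 (ACSL1) with siAkt1-22. For CCAAT the medians with and without it were -0.24 and -0.23 with siAkt1-22, and 0.07 and 0.08 with siAkt1-58. For GGGCGG, which only 2 members lacked, they were -0.23 and 0.14, and 0.09 and -0.21.

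Genes next to these pathways had siAkt1-22 medians nearer to 0.00 than the members' -0.24, except in the list of other late sterol steps (0.42). Fatty acid oxidation, the breakdown counterpart of synthesis, had medians of 0.20 with siAkt1-22 and 0.01 with siAkt1-58 over 13 genes, with 6 above siNT (30.9% of all genes tested) and 1 below it (21.4%) with both. HADHB, the beta subunit of the mitochondrial trifunctional protein, was 9.27 in siNT, 10.15 in siAkt1-22 and 10.01 in siAkt1-58, and all 5 of its probe sets were above siNT with both siRNAs. The nuclear receptor PPARA was 0.48 and 0.66, and ACADM, a dehydrogenase, was -0.10 and -0.48. The alpha subunit HADHA, singled out after its values were seen, was 9.50, 8.34 and 10.19, so the partner subunits differed with siAkt1-22.

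In acyl-CoA activation and glycerolipid assembly, ACSL4, a synthetase that prefers polyunsaturated chains, was at least 2-fold lower with both siRNAs, at 10.19, 8.93 and 8.39. Its dimmer probe set gave -1.21 and -1.34. It was 1 of 11 genes there, where all genes tested gave 1.17%. GPAT3, an acyltransferase, was -1.08 and -0.51, AGPAT1 was 0.59 and 0.37, and DGAT1, which completes triglycerides, was 0.32 and 0.38. The medians of this list were 0.03 and 0.02.

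Among 3 other genes of late sterol synthesis, ERG28, a scaffold for the demethylation enzymes, was at least 2-fold higher with both siRNAs, at 6.74, 7.92 and 8.65 (background 0.736%). Its other probe sets lay below the filter and gave 0.07 to 0.34. LBR, a sterol reductase of the nuclear envelope, was -0.82 and -0.64, and TM7SF2, the related reductase, was 0.42 and 0.39. LBR and ERG28 thus differed in direction within the same part of the pathway.

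In the isoprenoid branch, GGPS1, which makes geranylgeranyl diphosphate from the product of FDPS, was 7.79 in siNT, 8.30 in siAkt1-22 and 8.77 in siAkt1-58, and all 3 of its probe sets were above siNT by 0.52 to 1.39. FNTA, a prenyltransferase subunit, was 0.36 and 0.33. The ubiquinone genes PDSS1 (-0.70 and -0.98) and COQ2 (-0.38 and -0.60) were below siNT with both. Over 10 genes the medians were 0.09 and -0.04.

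Sterol storage and export had medians of 0.10 and 0.11 over 9 genes. SOAT1, which esterifies cholesterol for storage, was 7.18 in siNT, 6.16 in siAkt1-22 and 6.37 in siAkt1-58, and all 3 of its probe sets were below siNT with both. The lysosomal sterol carriers NPC2 (0.75 and 0.69) and NPC1 (0.59 and 0.28) were above it. ABCA1, the cholesterol exporter, which was singled out after its values were seen, was 6.16, 6.05 and 7.88, high in the same siAkt1-58 library in which STARD4 was high.

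In SREBP processing and turnover, 7 genes had medians of -0.03 and 0.06, and TMEM147 (0.09 and 0.05) was the only gene on the same side of siNT with both siRNAs. In the list of other elongation and desaturation genes, with medians of 0.05 and 0.04 over 10 genes, the dehydratase HACD3 was -1.17 and -0.19 and the elongase ELOVL7 -0.04 and -2.11. TECR, the reductase that ends each elongation cycle, was 0.57 and 0.38, and ELOVL3 was 0.29 and 0.10. No gene of either list was 2-fold from siNT with both siRNAs.

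**Figure D4:**
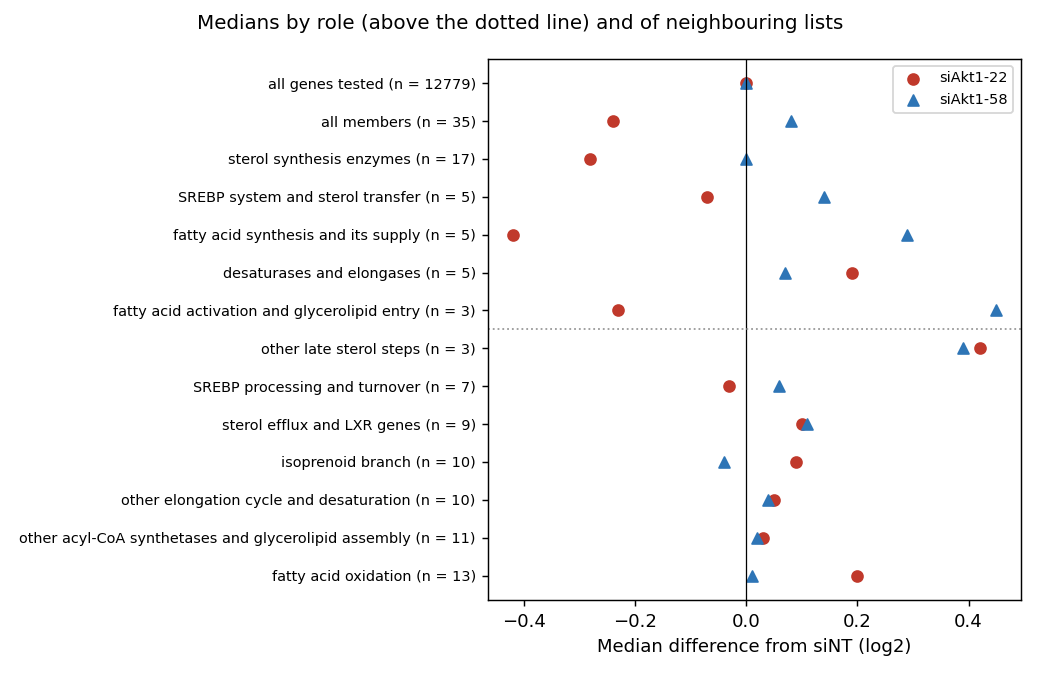
Median difference from siNT in log2 units (horizontal) with siAkt1-22 (circles) and siAkt1-58 (triangles) for all genes tested, the members and their roles (above the dotted line) and the neighbouring lists (below it), with the number of genes in each. The widest gaps between the siRNAs are in fatty acid synthesis and its supply (-0.42 and 0.29) and in fatty acid activation and glycerolipid entry (-0.23 and 0.45, 3 genes).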

How the data were processed

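Total RNA (10 ng) from GFP-SAS cells was labelled for Affymetrix 3' arrays, per the labels' protocols. The authors deposited 1 log2 value per probe set and array, made with RMA, which the submitters' processing notes name without version or settings; software and scan batches are not stated in the labels. RMA gives the arrays the same overall distribution; 19.6% of the members' probe sets had equal values, to the digits deposited, on at least 2 arrays. Of 49386 probe sets, 45253 carried 1 gene in the platform annotation; 1327 with several, 2713 unlisted and 93 controls were left out. Symbols were updated through Entrez identifiers. The brightest probe set by mean log2 value stood for a gene, and genes at or above the 30th percentile of that mean were tested. Differences are log2 values minus siNT. Limma 3.58.1 in R 4.3.3 compared both siAkt1 libraries, 1 group by genotype label, with siNT (lmFit and eBayes, two-sided, adjusted by Benjamini-Hochberg across all tested genes); the lone siNT library is assumed to vary like the others, and a p-value reflects only the spread among these samples. The code was tested on simulated data. The number of arrays limits the precision. Members, roles and neighbouring lists were chosen with earlier results of these data known. Genes were named by rule: AKT1; every member, with values per library for those 2-fold from siNT with either siRNA and the leading 2 on each side of a role; and up to 2 on each side of a neighbouring list. Exceptions are marked, and AKT2, ACTB, GAPDH and values per library of further members were also added after values were seen. Promoters came from RefSeq (33 of 37 members matched).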

Additional observations from a re-analysis of the deposited data

How the results depend on the processing

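No paired analysis was possible because siNT has 1 library, so the groups share fewer than 2 replicate numbers. Limma called 0 members under every alternative (no filter, a filter at the 50th percentile, median centring, averaged probe sets, quantile normalization, eBayes with an intensity trend or robust), with lowest adjusted p-values of members from 0.257 to 0.824. Leaving out a siAkt1 library leaves 1 library against 1 and no test; the counts then ranged from 0 to 6 members at least 2-fold lower, from 1 to 1 at least 2-fold higher, from 12 to 23 below siNT and from 11 to 22 above it, against 0, 0, 7 and 6 with both siRNAs required. A limit of 1.5-fold gave 1 member lower with both siRNAs (INSIG1; 3.58% of all genes), 12 lower with siAkt1-22 (12.0%) and 4 higher with siAkt1-58 (6.58%). Averaged probe sets gave 5 members lower with siAkt1-22 (ME1 in place of MSMO1 and AACS), against 4.26% of all genes. They gave 0 higher with siAkt1-58 and 5 with siAkt1-22 at least 2-fold below siAkt1-58, whose shares of all genes were not counted. The desaturase and elongase median with siAkt1-22 was then 0.08. Median centring, quantile normalization and both filter settings kept each of these counts within 1.5 times and moved no role median by more than the spread between the siRNAs.

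The shift of the siAkt1 arrays to equal poly-A controls, the alternatives for counts with a single siRNA or between the siRNAs, and the count over bright genes were added after seeing the data. The shift is relative to siNT. It moves every siAkt1-22 value by 0.56, all genes included. It left 2 members lower with siAkt1-22 (ACLY and SCD; 2.34% of all genes), 4 with siAkt1-22 at least 2-fold below siAkt1-58 (2.10%), 3 below siNT with both (8.28%) and 15 above (60.0%). The siAkt1-22 medians became 0.32 for all members, 0.28 for sterol enzymes, 0.50 for the SREBP system, 0.15 for fatty acid synthesis, 0.75 for desaturases and elongases and 0.34 for activation and glycerolipid entry. No detection calls were used, and dim values understate differences.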
